A study of Homo sapiens with 40 samples.

Results

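The regions described here were selected on the peak calls of BT474R cells at 12 and 24 h of treatment. Peaks of all 40 libraries on chromosomes 1 to 22 and X were merged where they overlapped by 1 bp or more, which gave 76603 regions, and a region was called open in a library that had a peak there. A region was chosen when it was open in 6 or more of the 8 BT474R libraries treated with EGF or HRG for 12 or 24 h, in 1 or fewer of the 4 BT474R control libraries of those times, and in 5 or fewer of the 20 BT474 libraries. The rule took 773 regions, 1.01% of the total.

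ATAC-seq cuts accessible DNA with a transposase, so that promoters and enhancers without a nucleosome appear as peaks of reads. BT474 is an established HER2-overexpressing line of breast ductal carcinoma, and BT474R is a single trastuzumab-resistant clone grown out of it under that antibody. Both lines were starved of serum and collected at baseline (0 h) or after 1, 12 or 24 h with the epidermal growth factor EGF, with heregulin (HRG) or with the vehicle, water, which is the control. Each of the 20 groups had 2 libraries, and the labels do not say whether these came from separate cultures, so the tests below measure the spread between libraries, which may be technical.

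EGF binds the receptor EGFR, and HRG binds HER3 and HER4. Both draw HER2 into receptor pairs that switch on the MAP kinase and PI3K cascades. MAP kinases induce and activate the FOS and JUN proteins, which pair up as the transcription factor AP-1 and bind a short DNA motif found in many distal enhancers.

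The sequences around the summits of 6 chosen regions are given because these were the first by the naming order: open in all 8 ligand-treated libraries, in 0 of the 4 controls and in 0 of the 20 BT474 libraries, with the highest peak ranks. Each is 201 bp of GRCh38, plus strand, 5′ to 3′, centred on the summit and named for the nearest protein-coding start. Capitals mark a match to the AP-1 motif TGAGTCA or its reverse complement.
TNFAIP3 region (chr6:137978412-137978612): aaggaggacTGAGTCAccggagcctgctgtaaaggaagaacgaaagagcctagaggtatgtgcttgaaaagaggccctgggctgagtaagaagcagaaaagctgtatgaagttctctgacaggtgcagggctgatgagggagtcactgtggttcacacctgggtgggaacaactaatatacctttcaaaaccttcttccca
MEDAG region (chr13:30830174-30830374): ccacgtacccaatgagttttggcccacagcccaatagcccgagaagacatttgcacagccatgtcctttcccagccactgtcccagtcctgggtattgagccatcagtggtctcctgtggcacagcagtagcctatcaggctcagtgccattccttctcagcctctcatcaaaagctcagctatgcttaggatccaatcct
TENM4 region (chr11:78789385-78789585): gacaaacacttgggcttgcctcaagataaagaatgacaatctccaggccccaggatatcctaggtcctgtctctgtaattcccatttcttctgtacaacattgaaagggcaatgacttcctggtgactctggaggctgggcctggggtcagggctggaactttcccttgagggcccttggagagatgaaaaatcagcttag
SLC44A3 region (chr1:94862885-94863085): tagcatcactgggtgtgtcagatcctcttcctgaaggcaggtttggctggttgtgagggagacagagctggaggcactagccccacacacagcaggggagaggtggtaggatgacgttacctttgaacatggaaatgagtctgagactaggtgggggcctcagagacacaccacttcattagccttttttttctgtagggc
SHROOM2 region (chrX:9829640-9829840): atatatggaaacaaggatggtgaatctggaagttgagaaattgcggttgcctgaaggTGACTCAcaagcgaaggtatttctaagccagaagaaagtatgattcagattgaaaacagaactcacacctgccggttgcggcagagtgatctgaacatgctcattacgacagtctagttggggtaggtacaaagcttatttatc
ITPRID2 region (chr2:181791342-181791542): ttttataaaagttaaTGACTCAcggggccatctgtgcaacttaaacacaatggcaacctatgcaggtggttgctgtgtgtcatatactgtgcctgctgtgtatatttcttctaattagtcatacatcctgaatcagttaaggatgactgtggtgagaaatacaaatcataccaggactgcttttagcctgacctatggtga
The TNFAIP3, SHROOM2 and ITPRID2 sequences held 1 AP-1 match each and the other 3 held 0.

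The working name of the set, ligand-opened regions, did not hold across the BT474R time course. Most of the chosen regions already had a peak in BT474R without ligand. Of the 773, 697 (90.2%) were open in at least 1 of the 4 libraries from baseline or 1 h of control treatment. In all 4, 265 (34.3%) were open, against 53.1% of all 76603 regions. In 0 of the 4, 76 (9.83%) were open, against 25.4% of all regions. None of those 4 libraries entered the rule. The regions are therefore better described as open with ligand at 12 and 24 h and in 1 or fewer of the 4 controls of those times. A peak in 1 of these late controls was present at 390 (50.5%) and in none of them at 383 (49.5%). The share of chosen regions open in at least 1 of the 4 baseline and 1 h control libraries depended on the peaks kept. It was 54.9% when every library was limited to its 32479 highest-ranked peaks, which chose a largely different set of 583 regions.

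In BT474R at baseline, 506 and 311 of the regions had a peak. After 1 h of control treatment 654 and 603 were open, after 12 h 0 and 63, and after 24 h 27 and 300. The late controls were fixed low by the rule, and they were uneven: the second 24 h control library alone supplied 300 of the 390 control peaks that the rule allowed (76.9%), and the first 12 h control supplied 0. With EGF, 665 and 569 regions were open at 1 h, 567 and 510 at 12 h, and 768 and 766 at 24 h. With HRG the numbers were 663 and 729 at 1 h, 714 and 666 at 12 h, and 738 and 672 at 24 h. The ligand-treated libraries of all 3 times thus lay in the range of the 1 h controls or above it, apart from 3 EGF libraries that were lower.

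**Figure D1:**
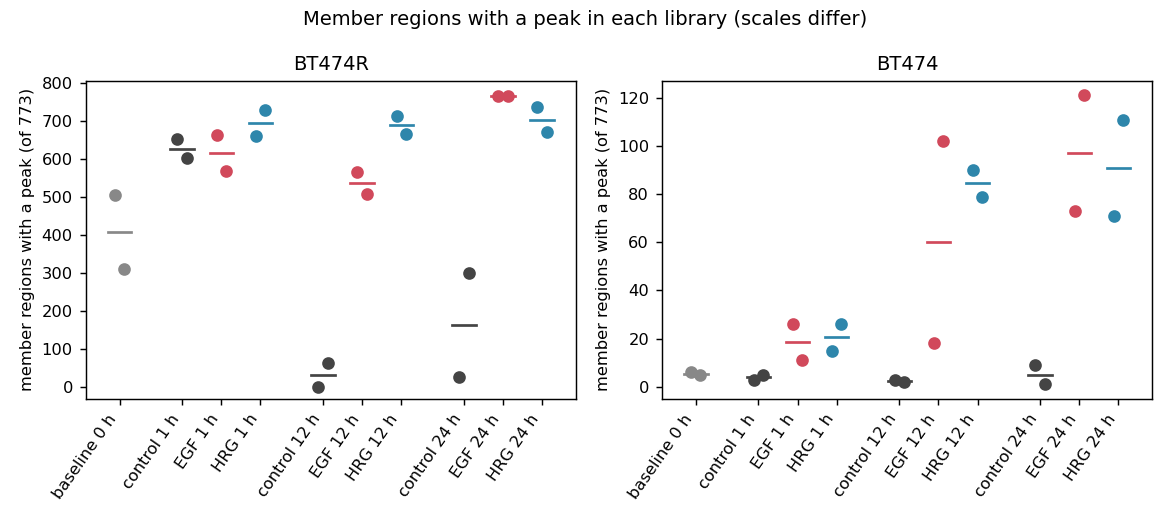
Number of the 773 chosen regions with a peak (y axis, scales differ between the lines) in each library of BT474R (left) and BT474 (right), by arm and time. Points are libraries and bars are the means of 2. In BT474R, the 12 and 24 h controls lay between 0 and 300 regions, below every other BT474R library (311 to 768), and in BT474 the ligand-treated libraries (11 to 121) lay above the controls (1 to 9).

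The number of peaks differed between libraries and moved in part with these counts. The lists held 32479 to 56494 peaks in BT474R and 47571 to 56846 in BT474, and they carry no read totals, so depth is unknown and a missing peak does not show closed chromatin. The first 12 h BT474R control had the fewest peaks, 32479, and the other late controls had 40331, 41833 and 45799. The BT474R libraries with EGF for 12 h had 38205 and 37476 peaks, fewer than 3 of the 4 late controls, and were open at 567 and 510 of the regions. With equal numbers of peaks in every library the rule took 583 regions, which included 66 of the 773. As a check of the labels, promoter peaks at GATA3, FOXA1, KRT8, KRT18 and ERBB2 were present in all 40 libraries and at ESR1 in 39. The promoters of VIM and COL1A1, more typical of mesenchymal cells, also had peaks in all 40, and the leukocyte gene PTPRC and the endothelial gene PECAM1 in 0.

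Regions of the opposite kind were fewer. The BT474R conditions of the rule alone were met by 2181 regions (2.85% of the 76603), and 1408 of these were open in 6 or more BT474 libraries and so were not chosen. Regions open in 2 or fewer of the 8 ligand-treated and in 3 or more of the 4 control libraries numbered 199 (0.26%). These counts describe the contrast that the rule used and carry no test.

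The chosen regions held mostly weak peaks. A peak was ranked by its score within its own library, from 0 for the lowest to 100 for the highest. The median rank of the chosen regions' peaks was 35.0 and 35.7 in the 24 h EGF libraries, 23.3 and 13.4 with HRG at 24 h, 16.3 and 13.1 with EGF at 12 h, and 15.6 and 13.1 with HRG at 12 h. It was 23.1 and 21.8 in the 1 h controls and 16.5 and 14.1 at baseline. The 24 h EGF libraries were thus the only late ligand-treated ones above 23.3. With peaks below a score of 400 left out, the rule took 481 regions, which included 15 of the 773, so membership rested on peaks near the calling limit.

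Just inside the limit on ligand libraries, the 292 regions open in 6 of 8 had a median of the mean rank of 13.2, against 9.56 for the 449 regions that met the other limits and were open in 5 of 8. Of the chosen regions, 390 were open in 1 late control, and 550 regions just outside were open in 2. In BT474, 45 chosen regions were open in 5 libraries and 35 just outside in 6.

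The 4 ligand groups did not contribute alike. Both 24 h EGF libraries were open at 762 regions (98.6%), both 24 h HRG libraries at 649 (84.0%), both 12 h HRG libraries at 616 (79.7%) and both 12 h EGF libraries at 432 (55.9%). At 12 and 24 h together, 653 ± 134 regions were open with EGF and 698 ± 34.4 with HRG (SD, n = 4 each), a difference of -44.8. With equal numbers of peaks per library the difference was 109 in favour of EGF. At 24 h, 736 ± 44.8 were open against 614 ± 92.6 at 12 h (n = 4 each), a difference of 122. This difference was -42.2 with equal numbers of peaks and -3.6 per 10000 peaks. The rule selected on these same 8 libraries and limits both differences, so they are given as a description with no test.

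**Figure D2:**
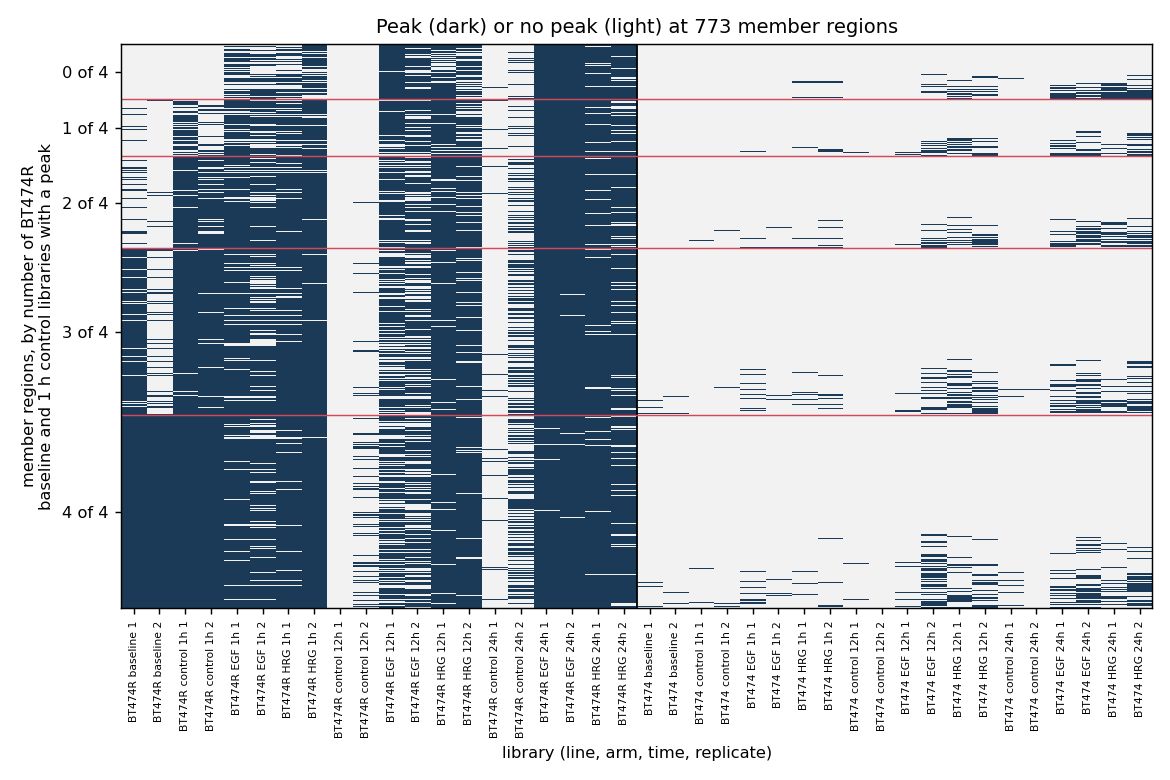
Peak (dark) or no peak (light) at each of the 773 chosen regions (rows) in the 40 libraries (columns, BT474R left of the line and BT474 right). Rows are grouped by the number of BT474R baseline and 1 h control libraries with a peak, from 0 (76 regions) to 4 (265 regions), and within groups by the number of open BT474 libraries.

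At 1 h, the numbers open with ligand and with control overlapped, and no difference was shown. The 4 ligand-treated BT474R libraries were open at 656 ± 65.9 regions and the 2 controls at 628 ± 36.1, and the ranges of 569 to 729 and 603 to 654 overlapped (difference 28.0, exact permutation p = 0.667 and adjusted p = 0.667; 15 arrangements allow no p below 0.133). Open in 3 or more of the 4 ligand-treated libraries and in neither control were 36 of the chosen regions (4.66%), against 0.785% of all regions. Open in both controls and in 1 or fewer ligand-treated libraries were 10 (1.29%), against 2.79% of all regions. The comparison of numbers depended on the scaling. The 1 h controls had 56494 and 54256 peaks and the ligand-treated libraries 47474 to 56334. With equal numbers of peaks, 310 to 354 of the regions then chosen were open with ligand and 217 and 209 with control (difference 117), and per 10000 peaks the difference was 12.9. In both, all 4 ligand-treated libraries were above both controls, and p was the smallest possible, 0.133 by exact permutation. These shares of regions are read with the rule in mind, which took regions open with ligand later.

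The 76 regions without a peak at baseline and in the 1 h controls were the ones with the time course that the working name describes. Of these, 61 were open in 1 or more of the 4 ligand-treated libraries at 1 h, 31 in 3 or 4, and 15 were first open at 12 or 24 h. All 8 late ligand-treated libraries were open at 22 of them, and 43 had no peak in any BT474 library.

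Where the chosen regions had peaks in BT474, these lay mostly in ligand-treated libraries. The rule used how many BT474 libraries were open, not which, so the direction of a difference between arms can be compared there. Its size applies only to regions within the limit of 5 BT474 libraries. That limit removed regions open in more BT474 libraries, often controls among them. Control libraries were open at 3 and 5 of the 773 regions at 1 h, 3 and 2 at 12 h and 9 and 1 at 24 h, and the baseline libraries at 6 and 5. With EGF, 26 and 11 regions were open at 1 h, 18 and 102 at 12 h, and 73 and 121 at 24 h. With HRG, 15 and 26 were open at 1 h, 90 and 79 at 12 h, and 71 and 111 at 24 h. Every ligand-treated library was above every control library, although the first 12 h EGF library was far below its replicate. The same order held at the 1408 regions that met the BT474R conditions but exceeded the BT474 limit. Of these, 1119 to 1367 were open with ligand and 877 to 966 with control, so the arms were proportionally much closer there.

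Over the 3 times, 61.9 ± 40.6 regions were open with ligand (n = 12) and 3.83 ± 2.86 with control (n = 6). The difference of 58.1 was larger than the spread within times (two-sided exact permutation test, p = 0.000593, the smallest they allow; adjusted p = 0.00356). EGF gave 58.5 ± 46.8 and HRG 65.3 ± 37.4 (n = 6 each), which were 54.7 and 61.5 above the controls they share (exact permutation p = 0.00926 for each, the smallest possible; adjusted p = 0.0185). The ligand effect was 15.5 regions at 1 h, 69.8 at 12 h and 89.0 at 24 h. The 24 h effect was 73.5 regions above that at 1 h (exact permutation p = 0.019), and the 12 h effect 54.2 above it (exact permutation p = 0.0667). These tests of time were added after the data were seen, and they rest on counts that were not scaled to other regions.

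Of the 773 regions, 488 had no peak in BT474 and 85, 52, 49, 54 and 45 were open in 1, 2, 3, 4 and 5 libraries. Of the 777 BT474 peaks at these regions, 351 lay in the 12 and 24 h HRG libraries and 314 in those with EGF, together 85.6%. The 1 h ligand libraries held 78 (10.0%) and the late controls 15 (1.93%). Among the 285 regions with any BT474 peak, 261 (91.6%) were open at 12 or 24 h in 1 or more ligand-treated libraries and in 0 of the 4 controls, against 56.2% of all 10492 regions open in 1 to 5 BT474 libraries. The reverse was seen at 3 (1.05%), against 11.4%. The BT474 peaks were weak, with median ranks of 3.44 to 8.98 in the late ligand libraries, and none was among the 32479 highest-ranked peaks of its library.

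A set of 2149 regions that was equally rare in BT474 but open in BT474R also with control (6 or more of 8 ligand-treated and 3 or 4 of 4 control libraries) served for comparison. In BT474 it was open at 151 ± 120 regions with ligand and 54.3 ± 36 with control, a 2.79-fold ratio, against 16.2-fold for the chosen regions. Both ratios apply only to regions open in 5 or fewer BT474 libraries. Per 100 open regions of the comparison set, 51.7 ± 23.5 chosen regions were open with ligand (n = 12) and 8.88 ± 6.75 with control (n = 6), a difference of 42.8 (two-sided exact permutation test within times, p = 0.000593, the smallest possible). This comparison was added after the data were seen. It pooled the 3 times, and the change with time was not tested on this scale.

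The regions lay mainly away from promoters. Within 1 kb of an annotated transcript start were 102 (13.2%), against 30.1% of all regions. Introns held 382 (49.4%, all regions 41.2%), exons 37 (4.79%, all 3.41%) and intergenic sequence 252 (32.6%, all 25.2%). The promoter share was 14.3% in the 1408 regions also open in BT474 and 15.8% in the comparison set. The median distance to a protein-coding start was 28.6 kb, against 17.8 kb over all regions. Median width was 435 bp (quartiles 341 and 575) against 523 bp, and median GC content 49.3% against 51.2%.

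The AP-1 motif was the most common of 14 motifs searched on both strands within 100 bp of the summit. It occurred in 254 of the 773 regions (32.9%, exact 95% interval 29.6 to 36.3), in 43.2% of the 1408 regions also open in BT474, in 9.4% of the comparison set and in 13.1% of all regions. Such intervals cover counting error only. Of the 254, 235 had 1 match and 19 had 2 or more. The nearest match was a median of 30 bp from the summit, and in 92 regions (36.2%) it was within 20 bp.

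**Figure D3:**
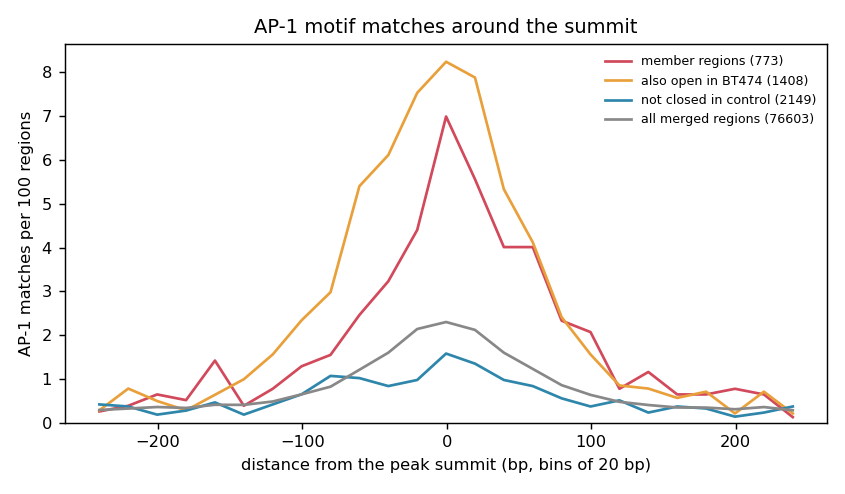
AP-1 matches per 100 regions (y axis) by distance from the peak summit in bins of 20 bp (x axis) for the 773 chosen regions, the 1408 regions also open in BT474, the 2149 comparison regions and all 76603 regions. Every curve was highest at the summit, and there the chosen regions and those also open in BT474 (6.99 and 8.24) lay above the comparison regions and all regions (1.58 and 2.3).

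The AP-1 share was lower among regions that were open early in BT474R. It was 55.3% among the 76 regions open in 0 of the 4 baseline and 1 h control libraries, 60.3% of the 78 open in 1, 46.0% of the 126 open in 2, 30.3% of the 228 open in 3 and 14.3% of the 265 open in 4, which is close to the 13.1% of all regions. By BT474 libraries open, it was 28.9% of the 488 chosen regions with 0 and 39.6% of the 285 with 1 to 5. Among regions meeting the BT474R conditions but not chosen, it was 47.4% with 6 to 10 BT474 libraries open, 46.5% with 11 to 19 and 38.5% with 20. These values describe the regions, which are not replicates.

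The other motifs stood nearer to the share of all regions or below it. The KLF/SP box GGGCGGG, common in CpG-rich promoters, was in 2.72% of the chosen regions against 11.7% of all. The ETS motif CCGGAAG was in 2.07% against 3.67%, and the forkhead motif TGTTTAC, bound by FOXA1 in luminal cells, in 5.56% against 8.58%. The TEAD motif GGAATGT was in 3.36% against 4.44%, the E-box CACGTG in 3.23% against 4.31%, and the hypoxia response element ACGTGC, which can overlap the E-box, in 2.46% against 3.96%. The TFAP2 motif GCCNNNGGC was in 17.5% against 16.5%, the RUNX motif TGTGGTT in 4.92% against 4.46%, the GATA motif AGATAAG in 2.59% against 2.25%, and the STAT motif TTCCNGGAA in 1.03% against 0.815%. The CREB/ATF motif TGACGTCA (3 regions), the GRHL motif AACCGGTT (3) and the C/EBP motif TTGCGCAA (2) were too rare to compare.

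The 12 regions named first, all open in 8 of 8 ligand-treated, 0 of 4 late control and 0 of 20 BT474 libraries, had different earlier histories. Here and below, ranks and peaks are those of BT474R unless BT474 is named. The region 111 kb downstream of the start of TNFAIP3 (chr6:137978334-137979111, intergenic), which encodes the NF-kB inhibitor A20, had ranks of 75.9 and 77.2 with EGF at 24 h, 57.1 and 49.0 with HRG at 24 h, 68.8 and 58.4 with EGF at 12 h and 59.6 and 54.4 with HRG at 12 h. At 1 h it ranked 27.7 and 53.4 with control, 64.9 and 63.7 with EGF and 58.7 and 61.9 with HRG, and at baseline 22.4 in 1 library with no peak in the other. All 4 ligand-treated libraries at 1 h were above both controls.

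The region 76.0 kb upstream of MEDAG (chr13:30829165-30830910, intergenic) ranked highest with EGF at 24 h. Its ranks there were 94.5 and 94.0, against 53.2 and 44.1 with HRG at 24 h, 38.9 and 50.2 with EGF at 12 h and 37.1 and 37.8 with HRG at 12 h. At 1 h it had ranks of 32.7 and 18.6 with control and 21.0 and 24.5 with HRG, and no peak with EGF.

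The intronic region in TENM4 (chr11:78789063-78789754), which encodes a large transmembrane protein of neurons, was the clearest case of a peak present throughout except in the late controls. It ranked 42.9 and 44.1 at baseline, 55.5 and 51.9 in the 1 h controls and 32.3 to 72.0 in the late ligand-treated libraries. In CADPS2 (chr7:122847707-122848455, intron), a regulator of vesicle release, the ranks were 25.1 and 32.2 at baseline, 45.6 and 42.9 in the 1 h controls and 20.2 to 49.2 later with ligand.

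At several other named regions the 1 h peaks ranked higher with ligand than with control, or were seen with ligand alone. The intergenic region 100 kb upstream of ITPRID2 (chr2:181790994-181791662), whose product binds inositol trisphosphate receptors, had no peak at baseline and a rank of 1.45 in 1 of the 1 h controls. With EGF at 1 h it ranked 37.3 and 38.9, with HRG at 1 h 22.5 and 38.8, and with EGF at 24 h 69.1 and 73.1. The intronic region in SHROOM2 (chrX:9829283-9829901), an actin-binding protein, had no baseline peak, ranks of 15.6 and 1.95 in the 1 h controls and of 39.8 to 42.7 in the 4 ligand-treated libraries of that time. The region 118 kb downstream of the start of PCDH18 (chr4:137414374-137414875, intergenic), a protocadherin, had no peak at baseline or in the 1 h controls, ranked 22.8 and 7.33 in 1 EGF and 1 HRG library at 1 h, and reached 60.0 and 63.0 with EGF at 24 h.

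The remaining 5 lay near SLC44A3, PCNX1, TNFRSF10B, PDS5B and FAM47B. At 1 h the PCNX1 region also ranked higher with ligand, 17.5 to 28.8, against 7.42 and no peak in the controls. The PDS5B region did too, with 41.2 to 51.5 against 36.9 and 26.7. At other named regions the 1 h ranks with ligand and control overlapped. They were 43.5 to 58.4 against 55.5 and 51.9 at TENM4, and 39.2 to 63.0 against 45.6 and 42.9 at CADPS2. At SLC44A3 they were 62.4 to 72.0 against 58.4 and 62.5. At TNFRSF10B they were 18.5 to 30.8 against 25.4 and 29.7, and at FAM47B 11.8 to 42.9 against 22.2 and 23.7. The region 5.86 kb upstream of TNFRSF10B (chr8:23074455-23075116), which encodes a death receptor for the ligand TRAIL, lay at the start of a noncoding transcript and was open at baseline, with ranks of 10.4 and 8.27. Its highest ranks, 54.0 and 57.7, were with EGF at 24 h. At 12 of the 12 regions both 24 h EGF libraries ranked above both 24 h HRG libraries. The naming order used ranks from these same libraries, and the regions are not replicates. Over all chosen regions the median ranks were also higher with EGF at 24 h (35.0 and 35.7) than with HRG (23.3 and 13.4).

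**Figure D4:**
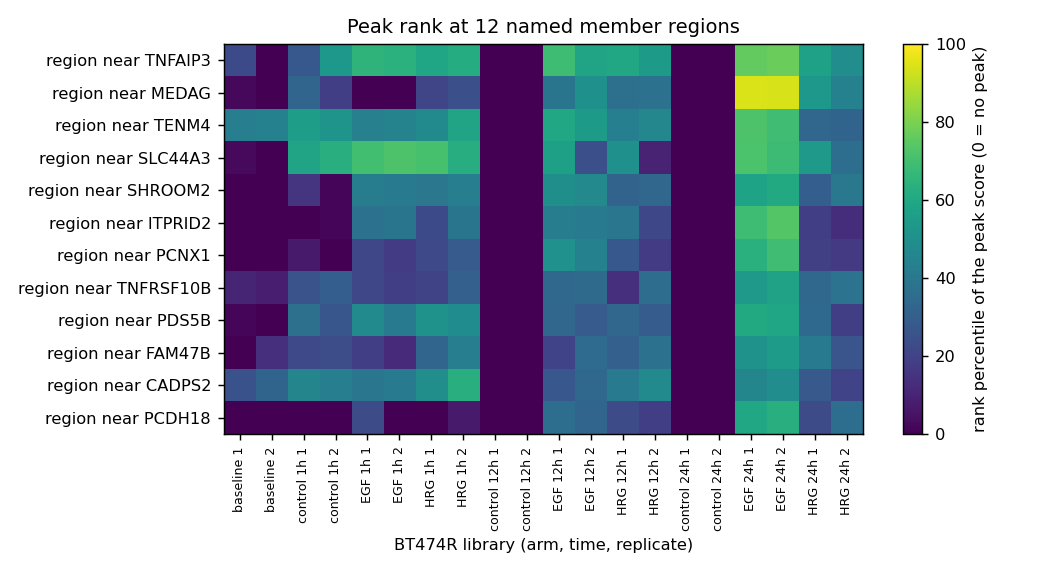
Rank of the peak score within its library (colour, 0 for no peak to 100 for the highest) at the 12 regions named first (rows, by nearest protein-coding start) in the 20 BT474R libraries (columns). The 12 and 24 h control columns are empty at every region, as the rule and the naming order require, and the 24 h EGF columns are the brightest in most rows.

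Within 1 kb of a protein-coding start lay 27 of the regions. The highest-ranked were at CEMIP, a hyaluronan-degrading factor (chr15:80777966-80778574, mean rank over the 8 ligand-treated libraries 46.1), and at PLAU, the protease urokinase (chr10:73909016-73909631, 29.7), whose region overlaps an annotated UTR. The CEMIP promoter was open in both baseline and both 1 h control libraries. The PLAU promoter had no baseline peak, ranked 54.7 and 47.0 in the 1 h controls and 57.8 to 59.9 in the 4 ligand-treated libraries at 1 h, and was open in 7 of 8 late ligand-treated and in 5 BT474 libraries. Next came GNAL, an olfactory-type G protein subunit (29.0), CX3CR1, the fractalkine receptor (27.9), and TRPT1, a tRNA-processing phosphotransferase (26.6), which was open in 7 of 8 late ligand-treated libraries and in none from baseline or 1 h. PRIM2, CREB3L2, TFEB, ACVR1 and ADIPOR1 followed with mean ranks of 25.5 to 16.3.

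By nearest protein-coding start within 100 kb, 582 of the regions were assigned to 533 genes, 2.72% of the 19618 annotated, and 191 lay farther away. Position alone does not show which gene a region acts on. Of 17 genes of MAP kinase feedback, 4 had a chosen region (23.5%). All 4 are brakes on the pathway downstream of EGFR, as a list of feedback genes implies. The comparison set, open also with control, had regions at 6 of the 17, and the set also open in BT474 at 3. Over all 19618 protein-coding genes, these 2 sets had regions at 1408 and 976 genes. The region 56.4 kb upstream of SPRY1 (chr4:123340190-123340636), a Sprouty inhibitor, had no peak at baseline or in the 1 h controls, ranks of 2.94 to 17.0 in 3 of the 4 ligand-treated libraries at 1 h, and ranks of 53.1 and 60.4 with EGF at 24 h. The region 71.3 kb upstream of ERRFI1 (chr1:8097402-8097767), which encodes an inhibitor of EGFR, held 2 AP-1 matches, had no peak at baseline or in the 1 h controls, and ranked 21.2 to 39.0 in all 4 ligand-treated libraries at 1 h. It had no peak with HRG at 12 h and 42.7 and 34.2 with EGF at 24 h. The region 18.6 kb downstream of the start of DUSP4 (chr8:29329926-29330866), a MAP kinase phosphatase, was open in no BT474R library from baseline or 1 h and in 6 of 8 late ligand-treated BT474R libraries. Its 2 BT474 peaks were in the HRG libraries at 1 h. The region of SPRY4 (chr5:142282048-142282325) was open in all 8 BT474R libraries from baseline and 1 h.

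Lipid synthesis had regions at 2 of 10 genes (20%), and the comparison set had regions at 4 of the 10. The region 28.6 kb downstream of the start of HMGCS1 (chr5:43283110-43285330), an enzyme of cholesterol synthesis, was the widest of the chosen regions at 2221 bp. It ranked 95.9 and 97.0 with EGF and 78.9 and 96.9 with HRG at 24 h, but it also ranked 87.6 in the second 24 h control, the 1 control peak the rule allowed, and had no peak in the first. The intronic region of SREBF2 (chr22:41842906-41843468), a transcription factor of sterol synthesis, was open in 8 of 8 late ligand-treated libraries with a mean rank of 15.5.

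In the hypoxia and glycolysis list, 3 of 25 genes (12.0%) had regions: EGLN3, a prolyl hydroxylase of HIF proteins, EPAS1, which encodes HIF-2 alpha, and HK2, hexokinase 2, with 2. The comparison set had regions at 9 of the 25. All 4 chosen regions of this list were open in at least 1 baseline and 1 of the 1 h control libraries and in 1 late control. The upstream HK2 region (chr2:74764430-74765229) ranked 41.2 and 35.8 at baseline and had no peak with EGF at 24 h, and so was open in the other 6 late ligand-treated libraries.

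In the adhesion, matrix and EMT list, 3 of 37 genes (8.11%) had regions, among them PLAU and the integrin subunit gene ITGA3. The interferon and STAT list had 1 of 27 (3.7%), an exonic region in STAT3 (chr17:42329402-42329989) that ranked 29.3 and 13.1 at baseline and 26.2 to 47.0 in the 8 late ligand-treated libraries. The bypass receptors had 1 of 15 (6.67%), EPHA2, with ranks of 46.6 and 46.5 in the 1 h controls, and the basal and squamous list 1 of 18 (5.56%), S100A7. Each of the lists of HER receptors and ligands (15 genes), AP-1 subunits (14), immediate early genes (18), inflammation and NF-kB (22) and luminal and steroid genes (17) had 0. With 2.72% of all protein-coding genes assigned a region, 0 in lists of this length is no result about them. The TNFAIP3 region lies beyond the 100 kb limit and was assigned to no gene here.

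The regions were scattered. The median gap between neighbours on a chromosome was 1800 kb, and 11 of 750 neighbouring pairs were within 5 kb. Nearest to 488 genes was 1 region each and to 42 genes 2. HPCAL1, a neuronal calcium sensor, had 4 regions, and HS6ST1, a heparan sulfate sulfotransferase, and DLK1, a Notch-related membrane protein, had 3 each. The 4 regions at HPCAL1 differed in their history: the one 21.9 kb downstream of the start (chr2:10390314-10390900) had no peak at baseline or in the 1 h controls, and the one 84.2 kb upstream was open in all 4 of those libraries. All 3 regions at HS6ST1 were open in every BT474R library from baseline and 1 h and in none of BT474.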

How the data were processed

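Accessibility was measured by ATAC-seq in 40 libraries, and groups were taken from the sample labels. In the study's methods, the authors removed adapters using Trim Galore (0.6.6 per the labels), mapped reads to GRCh38 with BBMap, removed mitochondrial and blacklisted reads, and called peaks with Genrich in each library. The options of Genrich are not given in the sources consulted, so whether intervals were centred on the transposase cut sites is unknown. That choice can change peak widths and numbers. Each deposited peak carries a score, the area under its significance curve as the authors' caller computed it (lowest value 200), which served for ranking and filtering inside 1 library at a time. The deposited −log10 p and −log10 q were not used in any test.

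Peaks were merged and chosen as stated above with Python 3.11.15, numpy 2.4.6, pandas 2.3.3 and scipy 1.17.1. The code for merging and choosing was run on simulated lists with clearly separated planted regions. That run checks the code and does not show how sure membership is for real peaks near the calling limit. Genes came from GENCODE release 44, and sequence from GRCh38. The members, motifs and gene lists were chosen with earlier results of these data known. Counts per library were compared by exact permutation, two-sided, with Benjamini-Hochberg adjustment over 6 tests, of which 2 that ran on the libraries the rule selected on are given as differences only. Named were 12 regions by ligand libraries, control libraries, BT474 libraries and mean rank, up to 10 regions within 1 kb of a protein-coding start by mean rank, regions assigned to listed genes, and genes nearest to 3 or more regions. Alternatives were a score of at least 400, equal numbers of peaks, peaks trimmed to 200 bp, a stricter rule (8 of 8 and 0 of 4), 50% of a region covered, counts per 10000 peaks, a replicate block, each library left out, a 250 bp motif window and promoters within 3 kb. Read counts were not analysed here. The values of 1 region of the gene lists are not reported here.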

Additional observations from a re-analysis of the deposited data

Results flagged for a closer look

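The effect of ligand on the number of chosen regions open per BT474 library differed between times, in counts not scaled to other regions. It was 73.5 regions larger at 24 h (89.0) than at 1 h (15.5), by an exact permutation test of the difference itself (two-sided, p = 0.019 over 420 arrangements, smallest possible p 0.00476). Every ligand-treated library at 24 h (71 to 121 regions) was above every one at 1 h (11 to 26). The 2149 comparison regions rose in the same libraries. Of these, 17 to 57 were open with ligand at 1 h and 206 to 328 at 24 h. With control, 28 and 24 were open at 1 h and 119 and 70 at 24 h. Whether the ligand effect changed with time relative to the comparison regions was not tested. The test was added after the data were seen.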

How the results depend on the processing

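All 3 BT474 comparisons of ligand or of 1 ligand with control kept their direction and their side of 0.05 under every alternative run. No alternative varied the limit of 5 BT474 libraries. With each library left out, the difference was 54.8 to 64.1 for both ligands, 40.7 to 68.7 for EGF and 54.8 to 68.2 for HRG. Membership was less stable. A score of at least 400 chose 481 regions (15 of the 773 among them), equal peaks 583 (66 of the 773), 8 of 8 with 0 of 4 chose 118, and leaving out 1 library gave 484 to 1302: 1302 without the second 24 h BT474R control, 501 without the first 24 h HRG, and 484 and 487 without the first or second 24 h EGF library of BT474R. The share open at baseline or with 1 h control was 95.2% at score 400, 54.9% with equal peaks, 87.3% under 8 of 8, and 84.2% to 90.0% with 1 library left out (these alternatives were added after the data were seen). The AP-1 share was 25.4%, 43.1% and 51.7% under those 3 choices and 40.2% in a 250 bp window (all regions 17.8%). The promoter share was 10.2% under 8 of 8 and 27.4% within 3 kb (all regions 41.9%). Differences that missed 0.05 changed sign: in BT474R, ligand against control at 1 h was -10.2 at score 400 (but 117 with equal peaks, 12.9 per 10000 peaks and 15.2 under 8 of 8, each at the smallest possible exact permutation p, 0.133), EGF against HRG 109 with equal peaks, and 24 h against 12 h -42.2 with equal peaks and -3.6 per 10000 peaks. With libraries left out these 3 were 2.5 to 57.2, -61.2 to -28.2 and 105 to 138. The rule of 8 of 8 fixes the last 2 at 0, so they have no value there. The causes were not tested, except that fewer peaks or libraries entered by construction.

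Replicates with the same number did not deviate together (correlations of -0.114 to 0.104 over 18 pairs of groups), so the numbers do not pair the libraries. With a replicate block the BT474 ligand difference was 58.1 (exact permutation p = 0.00274). Depth limits all counts, since it is unknown.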

Other observations

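The chosen regions were unevenly spread over chromosomes. Per 1000 merged regions of a chromosome, 19.8 were chosen on chromosome 13 (34 regions), 19.4 on chromosome 21 (16), 14.1 on chromosome 2 (83) and 13.5 on chromosome 1 (103), against 5.92 on chromosome 3 (27) and 5.95 on chromosome 11 (23). Chromosome 13 held 4.4% of the chosen regions, 3.26% of the 2149 comparison regions, 1.78% of the 1408 regions also open in BT474 and 2.24% of all merged regions. Chromosome 3 held 3.49%, 3.58%, 7.88% and 5.95% of these sets. Both sets that were rare in BT474 thus had a larger share on chromosome 13 and a smaller one on chromosome 3 than the set also open in BT474. Copy number of these chromosomes in either line was not analysed here.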
